A study of Mus musculus with 22 samples.

Results

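The Hox genes of the mouse were followed through thymus, cerebrum and cerebellum, library by library. The members were taken as the protein-coding entries named Hoxa, Hoxb, Hoxc or Hoxd plus a number in the GRCm38 annotation, which gave 39 of the 34585 entries listed in each count table and 39 of the 21800 protein-coding ones. They lie in 4 clusters, with 11 genes of HoxA on chromosome 6, 10 of HoxB on chromosome 11, 9 of HoxC on chromosome 15 and 9 of HoxD on chromosome 2. Genes of the same number in different clusters are paralogues, that is, copies of one ancestral gene. Hox genes encode homeodomain transcription factors that give cells their position along the axis from head to tail. In the embryo the genes with low numbers are switched on first and farthest forward, from the hindbrain segments and pharyngeal arches, and those with high numbers later and nearer the tail, and many adult tissues keep part of this pattern. The cerebrum and the cerebellum arise in front of the Hox-expressing hindbrain segments, whereas medulla and spinal cord arise within or behind them. The thymic epithelium arises from the third pharyngeal pouch, where Hoxa3 is needed for the organ to form, and blood-forming progenitors express Hox genes of the A and B clusters.

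The study made Tol mice, which express a single open reading frame of shuffled reporter proteins, and used these RNA-sequencing libraries to ask whether the transgene alters gene expression. Tol mice are heterozygous for the cassette, which lies 3′ of Col1a1 and is driven by the ubiquitous CAG promoter, and WT mice are their littermates without it. All mice were of strain C57BL/6, and the methods give 1 age range for all experimental mice but no age per library. The analysis covers 22 libraries. Thymus and cerebrum each have 4 from Tol mice and 4 from WT mice, and cerebellum has 2 from Tol mice and 4 from WT mice. The Tol line was derived by cassette exchange in a C57BL/6J embryonic stem cell line, and how many clones founded it is not given in the sources used here. Each library is labelled as a separate sample, but the labels do not tie libraries of different organs to individual mice, so p-values measure the spread between libraries. Each organ has a table of its own, and a difference between organs cannot be told apart from a difference between their preparations. These are whole organs, in which fewer cells of a type cannot be told apart from less RNA per cell.

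Libraries held between 14543698 and 34776973 counts (median 21577753.5). A count of 3 in a library was taken as its floor, and levels are given as counts-per-million values (CPM) scaled by TMM factors over all 22 libraries. Floors and intervals cover counting error only. The Tol transcript was at 19.8 to 25.4 CPM in Tol thymus, 147 to 174 in Tol cerebrum and 140 to 191 in Tol cerebellum, and at most at 0.12 CPM in the WT libraries. Marker genes matched the labelled organ in most libraries: the 8 thymocyte markers summed to 7847 to 10913 CPM in thymus and to at most 45.8 in brain, and the 6 thymic epithelium markers to 924 to 1102 and at most 16.6, and the 7 forebrain markers to 488 to 613 CPM in cerebrum and to at most 28.4 elsewhere. In cerebellum 3 libraries stood apart. The 7 cerebellar markers summed to 181 CPM in the library labelled cerebellum Tol 2, against 6357 in Tol 1 and 2602 to 5932 in the 4 WT libraries. Gabra6, a GABA receptor subunit of cerebellar granule cells, was at 12.8 CPM in the library labelled Tol 2 and at 332 to 798 in the others, which goes against that label. Cerebellum WT 2 had the highest sum of the 8 brainstem and spinal cord neuron markers, 220 CPM against 6.93 to 62.1. In that library Dbh, the noradrenaline-making enzyme, was at 4.88 CPM (at most 0.58 in the other cerebellum libraries) and Slc6a5, the neuronal glycine transporter, at 205 (5.68 to 60.5). Slc6a5 alone thus made up most of the sum in WT 2. Choroid plexus markers summed to 285 CPM in cerebellum WT 4 and 86.5 in WT 2, against 2.43 to 7.82 in the other 4. In cerebrum, WT 3 and Tol 4 stood apart in Meis2 (246 and 200 CPM, against 72.4 to 129.5 in the other 6). Results that rest on cerebellum WT 2 or on the library labelled Tol 2 are given with and without it.

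**Figure D1:**
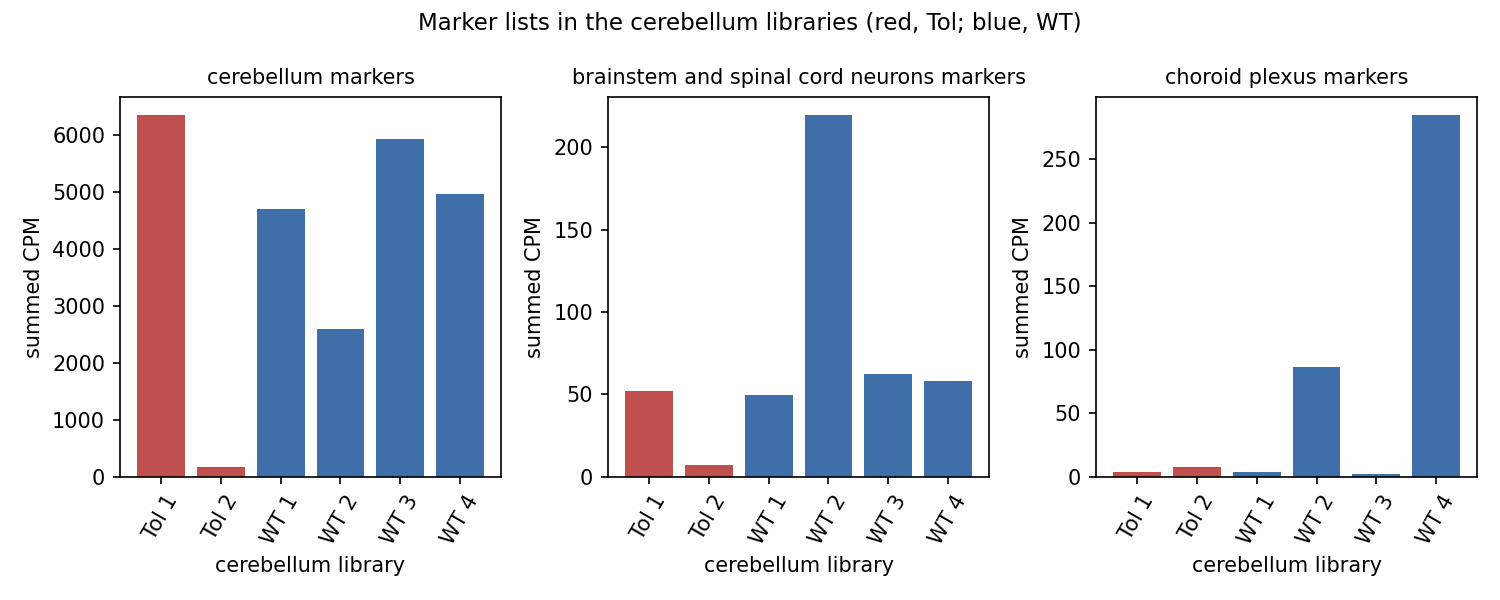
Summed CPM of 3 marker lists (cerebellum, brainstem and spinal cord neurons, choroid plexus) in each of the 6 cerebellum libraries. The library labelled Tol 2 has the lowest cerebellar sum, 181 CPM, and WT 2 has the highest brainstem and spinal cord sum, 220 CPM, most of it from Slc6a5.

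The plot of marker sums by cerebellum library shows that Tol 2 and WT 2 depart in different lists, the first by low cerebellar markers and the second by high brainstem and spinal cord markers. WT 2 also kept 2602 CPM of cerebellar markers.

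The homeobox, which encodes the DNA-binding homeodomain, is the most alike part of the members, and reads of 65 bases had to be assigned to one copy there. A homeobox was found in all 39 members, in each in the last exon of its transcript. Over the whole homeobox of 180 bases, the 42 pairs of the same number were identical at 67.2 to 93.9% of positions, with a median of 80.6%. Pairs within a cluster but of different number had a median of 61.7% (172 pairs), and the remaining 527 pairs one of 60.6%. The number 3 genes were the most alike, with 93.9% identity for Hoxa3 and Hoxb3, 93.3% for Hoxa3 and Hoxd3, and 92.8% for Hoxb3 and Hoxd3. The longest run of identical bases between genes of the same number was 47, between Hoxb3 and Hoxd3, and the longest between any other genes was 52. Both runs are shorter than the 65 bases of a read. Some members share exon sequence with a neighbour and their estimated counts depend on how reads were divided: Hoxd3 with Hoxd4, Hoxc5 with Hoxc10, and Hoxa2 and Hoxa3 with a readthrough model. Among others, Hoxa3, Hoxa4, Hoxa7, Hoxa11, Hoxb2, Hoxb3, Hoxb5, Hoxd3 and Hoxd4 overlap an antisense gene. The kit kept strand, but the strand setting of the counting is not given in the sources used here.

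Hox transcripts were present in thymus and close to the floor in most brain libraries. The 39 members together had 303 to 643 counts in a thymus library, 14 to 52 in a cerebrum library, and 46, 48, 52, 59, 72 and 703 in the 6 cerebellum libraries, of which WT 2 had the 703. At least 3 counts in every library of the organ were found for 16 members in thymus, for 1 in cerebrum (Hoxb1) and for 4 in cerebellum (Hoxb1, Hoxc4, Hoxc9 and Hoxd9). The 16 in thymus were 6 of HoxA, 5 of HoxB, 2 of HoxC and 3 of HoxD. By position in the cluster they were 6 of the 8 anterior members (numbers 1 to 3), 6 of the 15 central ones (numbers 4 to 8) and 4 of the 16 posterior ones (numbers 9 to 13). In thymus 9 members stayed under 3 counts in every library and 3 of these were at 0 throughout. In cerebrum 30 members stayed under 3 counts and 21 were at 0, and in cerebellum 18 stayed under 3 and 9 were at 0. Hoxa11 and Hoxd12 had no count in any of the 22 libraries, and the floor of 3 counts allows up to 0.0863 to 0.206 CPM by library total, depending on the library.

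**Figure D2:**
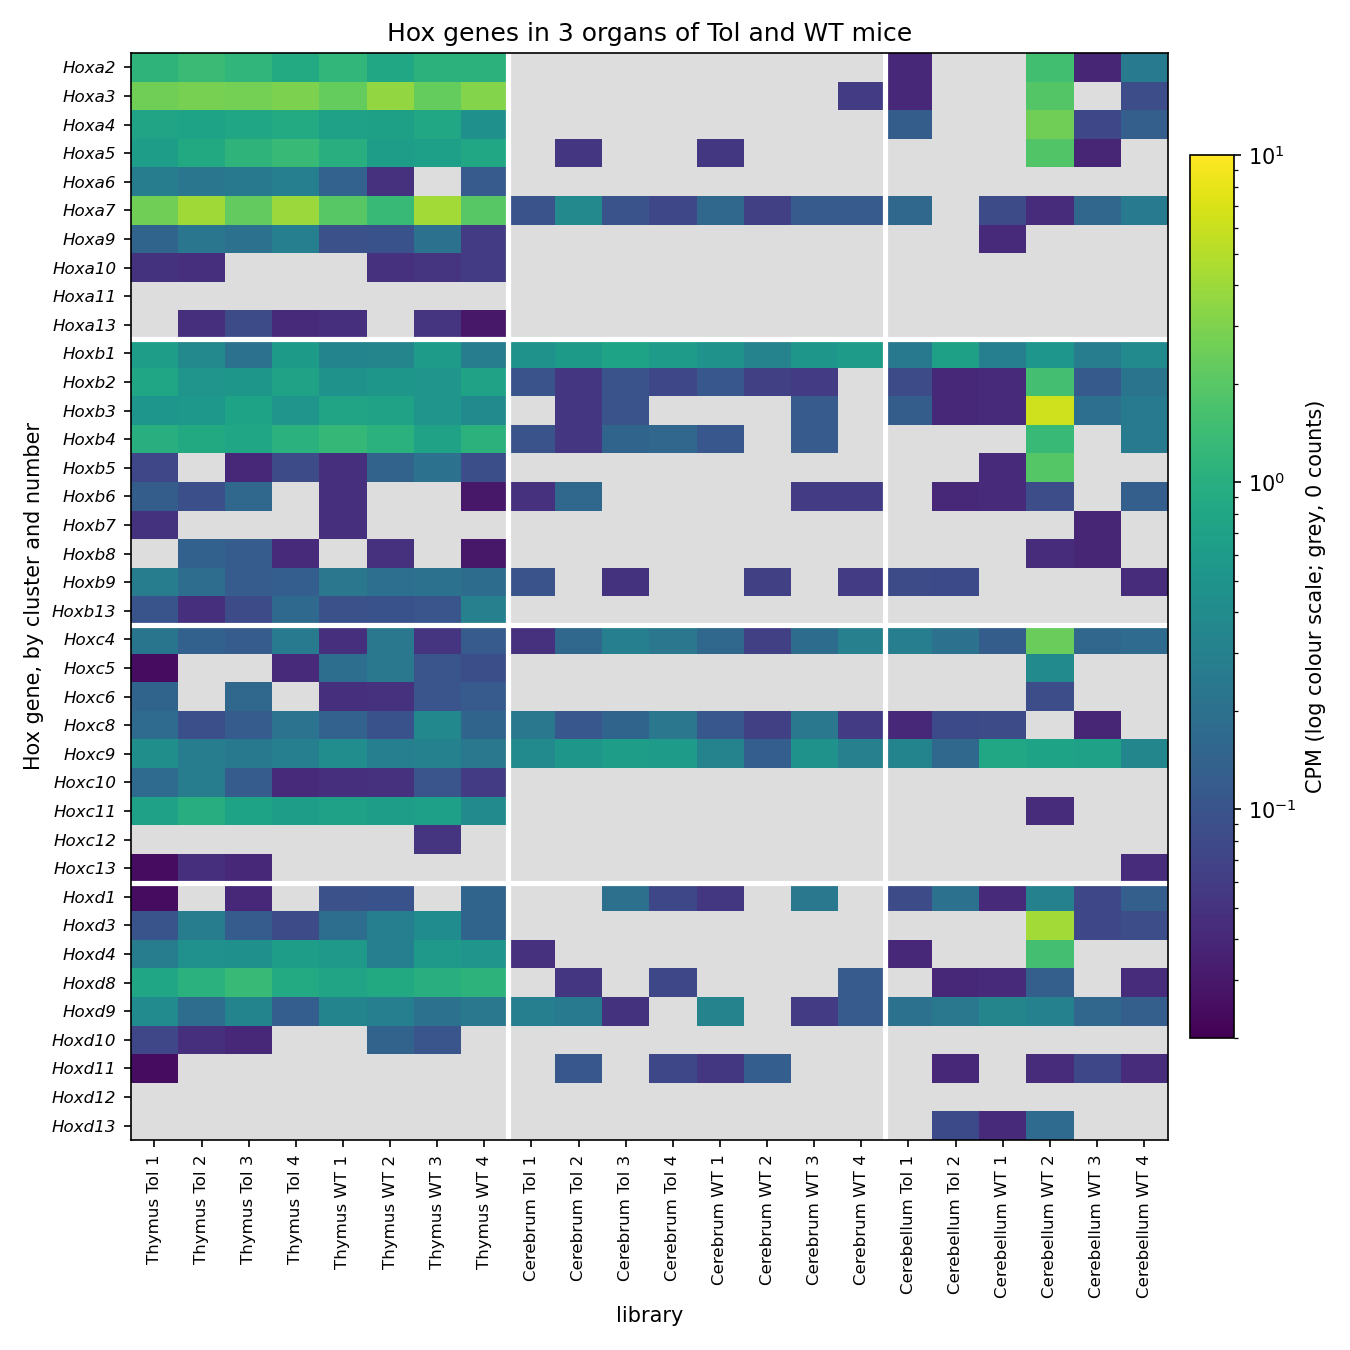
CPM of 38 of the 39 Hox members (rows, by cluster and number) in the 22 libraries (columns, by organ and genotype), on a logarithmic colour scale, with a count of 0 in grey. Counted over all 39, thymus libraries hold 20 to 27 members with at least 3 counts, cerebrum libraries 1 to 6, and cerebellum WT 2 holds 19 against 4 to 12 in the other cerebellum libraries.

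The map of the members by library shows most HoxA rows filled across thymus, with gaps for Hoxa6, Hoxa10 and Hoxa13 and an empty row for Hoxa11. Across cerebrum the HoxA rows are mostly empty, except for Hoxa7, which had counts in every cerebrum library. In cerebellum the column of WT 2 is the most filled. The summed level of the HoxA members was 8.65 ± 0.790 CPM (SD, n = 4) in WT thymus and 10.04 ± 1.24 (SD, n = 4) in Tol thymus. HoxB summed to 3.10 ± 0.163 CPM (SD, n = 4) in WT thymus, HoxD to 2.09 ± 0.159 and HoxC to 1.53 ± 0.254. In WT cerebrum the sums were 0.160 ± 0.0823 CPM for HoxA, 0.694 ± 0.185 for HoxB, 0.603 ± 0.265 for HoxC and 0.276 ± 0.127 for HoxD (SD, n = 4 each). HoxA thus had the highest sum of the 4 clusters in thymus and the lowest in cerebrum. Per kilobase of exon the WT thymus sums had the same order, at 3.15 ± 0.402 for HoxA, 1.09 ± 0.0545 for HoxB, 0.769 ± 0.0433 for HoxD and 0.667 ± 0.121 for HoxC (SD, n = 4 each).

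Levels of different genes were compared per kilobase of exon over the 8 thymus libraries. Hoxa7 was highest at 0.973 ± 0.388 CPM per kilobase (SD, n = 8), followed by Hoxa2 at 0.620 ± 0.101, Hoxa5 at 0.473 ± 0.132, Hoxa3 at 0.466 ± 0.0734 and Hoxa4 at 0.455 ± 0.0819. Then came Hoxb4 at 0.382 ± 0.0696, Hoxd8 at 0.353 ± 0.0684 and Hoxc11 at 0.336 ± 0.0784. The first 5 were all of HoxA. The ranges of neighbours in this order overlapped throughout, also those of Hoxa7 (0.471 to 1.47) and Hoxa2 (0.464 to 0.778). Differences between neighbours were not tested. At the low end of the members with 3 counts in every library stood Hoxb3 at 0.138 ± 0.0315, Hoxc9 at 0.130 ± 0.0319, Hoxd9 at 0.123 ± 0.0418 and Hoxb9 at 0.0739 ± 0.0196 CPM per kilobase. The order is not one of cluster position, since Hoxa7 and Hoxc11, of central and posterior number, lay above or among the anterior genes.

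**Figure D3:**
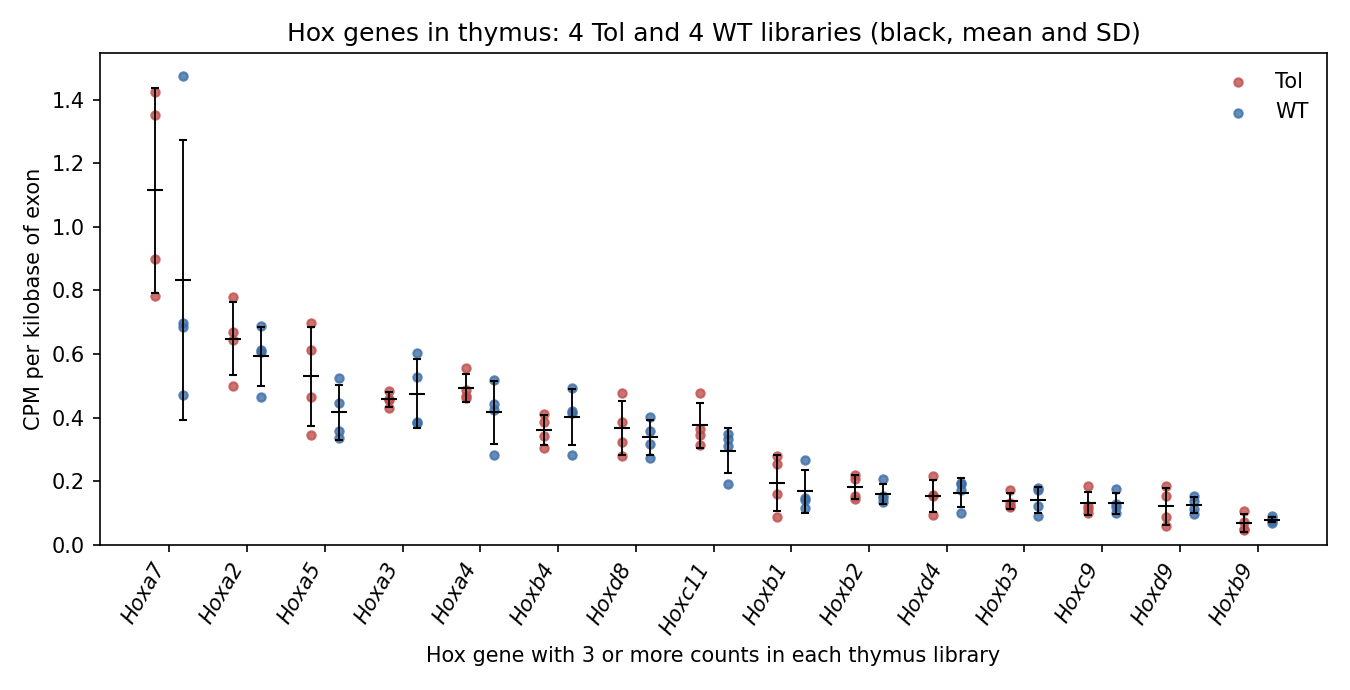
CPM per kilobase of exon for 15 of the 16 members with at least 3 counts in every thymus library, with Tol libraries in red, WT libraries in blue, and the mean and SD of each genotype in black (n = 4). Hoxa7 has the highest mean over the 8 libraries, 0.973, and the widest spread, and Hoxb9 the lowest, 0.0739.

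The plot of thymus levels shows red and blue points mixed for each of these genes and a wide scatter for Hoxa7 in both genotypes. WT thymus was then compared with WT cerebrum by edgeR's quasi-likelihood test in a fit of the 3 WT organs, where a gene was called when its adjusted p was under 0.05 and its log2 fold change beyond 1. After the filter on low counts 11 of the 39 members were tested. Of these 9 were higher in thymus and 0 lower, and 9 had an unadjusted p under 0.05. Over all 17413 genes tested by edgeR 29.7% were higher in thymus and 30.2% lower. DESeq2 fitted 37 members without that filter and gave 20 of them an adjusted p. It called 9 higher and 0 lower, out of a different set of members. The members at or near 0 in cerebrum could pass the filter only through another organ, so their number is a description and not support. Among 27 members with 3 counts in at least 1 of the 8 libraries, every WT thymus library lay above every WT cerebrum library for 19, against 37.9% of all 22156 such genes, and in Tol for 18 of 29, against 37.5%. Most of these members reached 3 counts in thymus only, so these numbers too are a description and not support.

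Of the anterior members, Hoxa3, which directs thymus and parathyroid formation, was at 2.30, 3.63, 2.33 and 3.17 CPM in WT thymus and had counts of 0, 0, 0 and 1 in WT cerebrum. Its 275 counts against 1 gave a ratio of 196 (exact 95% interval 34.8 to 7751) and an adjusted p of 0.000996. Hoxa2, which patterns hindbrain and pharyngeal arches, was at 1.22, 0.823, 1.09 and 1.08 CPM in WT thymus and at 0 counts in all 8 cerebrum libraries, hence at least 5.88-fold higher in thymus against the floor of 3 counts per library (adjusted p = 0.00537). Neither gene had a thymus library near the cerebrum values. Hoxb2, which acts in hindbrain segments and facial motor neurons, was at 0.470, 0.533, 0.517 and 0.718 CPM in WT thymus and had 2, 1, 1 and 0 counts in WT cerebrum, with a log2 fold change of 3.16 (SE 1.10, adjusted p = 0.0170). Hoxb3, at 0.752, 0.726, 0.517 and 0.389 CPM in WT thymus and with 0, 0, 2 and 0 counts in WT cerebrum, did not pass (adjusted p = 0.0609), although its groups did not overlap. With cerebellum WT 2 left out of the fit, Hoxb3 passed at a log2 fold change of 4.08 (adjusted p = 0.000429 by edgeR).

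Of the central members, Hoxa7 was at 1.97, 1.36, 4.24 and 2.00 CPM in WT thymus and at 0.163, 0.0643, 0.120 and 0.120 in WT cerebrum, a log2 fold change of 4.29 (SE 0.52, adjusted p = 5.10e-06). It was the member of HoxA with the most cerebrum counts, and each cerebrum library held 1 to 7. Hoxb4, known to expand blood stem cells when overexpressed, was at 1.27, 1.07, 0.724 and 1.08 CPM in WT thymus with 2, 0, 2 and 0 counts in WT cerebrum (log2 fold change 4.03, SE 1.23, adjusted p = 0.00832). Hoxd8 was at 0.752, 0.871, 0.983 and 1.11 CPM in WT thymus with 0, 0, 0 and 2 counts in WT cerebrum, a ratio of summed counts of 32.0 (exact 95% interval 8.60 to 268) with an adjusted p of 4.25e-05. These 3 genes had their lowest WT thymus library well above their highest WT cerebrum library.

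Hoxa5, needed for the respiratory tract and the neck skeleton, was at 0.987, 0.629, 0.673 and 0.837 CPM in WT thymus and had 1 count in the 4 WT cerebrum libraries together, a ratio of 53.3 (exact 95% interval 9.28 to 2134, adjusted p = 0.0144). Hoxa4 was at 0.705, 0.678, 0.828 and 0.448 CPM in WT thymus and at 0 in all cerebrum libraries, at least 3.72-fold higher in thymus (adjusted p = 0.0283). For Hoxd4, which like Hoxa4 shapes the neck vertebrae, WT thymus held 0.564, 0.290, 0.569 and 0.508 CPM and WT cerebrum no count, at least 2.70-fold higher in thymus (adjusted p = 0.0476). The call of Hoxd4 was lost when any 1 of the 8 WT thymus or cerebrum libraries was left out. It was kept without cerebellum WT 2, which is part of the fit and held 36 counts of Hoxd4, where the other WT cerebella held none. All 3 genes were thus present in each thymus library and in the WT cerebrum libraries at no more than 1 count.

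Among posterior members, Hoxc11 was at 0.705, 0.629, 0.673 and 0.389 CPM in WT thymus, 0.695, 0.967, 0.737 and 0.634 in Tol thymus and at 0 counts in all 8 cerebrum libraries, at least 3.35-fold higher in WT thymus than in WT cerebrum. It did not pass the filter with all 12 WT libraries, so no p was obtained for it in that fit, and it was called with another filter or none. Hoxc9, which patterns thoracic motor neurons, had 0.423, 0.290, 0.310 and 0.239 CPM in WT thymus and 0.325, 0.129, 0.480 and 0.300 in WT cerebrum (log2 fold change 0.028, SE 0.42, adjusted p = 0.994), a ratio of summed counts of 0.982 (exact 95% interval 0.541 to 1.81). Hoxb1, an anterior gene of facial motor neuron identity, was not tested in WT and had 7, 7, 12 and 9 counts in WT thymus and 9, 5, 9 and 10 in WT cerebrum, a ratio of 0.754 (0.455 to 1.25). Hoxc9 and Hoxb1 overlapped between the organs. Hoxb1 had 3 or more counts in each of the 22 libraries, and no other member had.

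The Tol libraries, which are other mice than the WT ones but come from the same tables, gave their own values. Of 14 members tested, 12 were higher in Tol thymus than in Tol cerebrum and 0 lower, beside 30.4% of all genes higher and 30.1% lower. As in WT, members at or near 0 in cerebrum could pass the filter only through another organ. This number too is therefore a description and not support. Hoxa3 was at 2.58, 2.76, 2.74 and 2.92 CPM in Tol thymus and had no count in Tol cerebrum. Hoxa7 was at 2.58, 4.10, 2.25 and 3.89 CPM in Tol thymus with 2, 7, 2 and 1 counts in Tol cerebrum. Hoxb4 was at 0.993, 0.875, 0.778 and 1.06 CPM in Tol thymus with 2, 1, 3 and 2 counts in Tol cerebrum. In each of these the Tol thymus libraries lay above the Tol cerebrum libraries, and Hoxb1 and Hoxc9 were the members tested and not called.

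WT thymus against WT cerebellum gave a different count with and without cerebellum WT 2. With all 4 WT cerebella, 3 of the 11 tested members were higher in thymus (27.4% of all genes) and 1 was lower (29.7%). Those higher were Hoxa7 (log2 fold change 4.11, adjusted p = 3.96e-06), Hoxd8 (4.04, adjusted p = 4.05e-05) and Hoxa3 (2.56, adjusted p = 0.0235). Hoxc9 was lower, at -1.03 (SE 0.37, adjusted p = 0.0193), a call lost under 5 of the alternative settings and without thymus WT 2, WT 3 or WT 4 or cerebellum WT 1, WT 2 or WT 3. Hoxa3 lost its call without cerebrum WT 4, without cerebellum WT 4 and under DESeq2. Without WT 2 the count was 12 higher of 12 tested and 0 lower, beside 27.9% of all genes higher and 28.9% lower. The 12 included Hoxa2, Hoxa3, Hoxa7, Hoxb3, Hoxb4, Hoxc11 and Hoxd8. Hoxc9 did not pass the filter there. Without WT 2 most of the 12 were near the floor in both brain organs and could pass the filter only through thymus, so this count too is a description. Against cerebrum the same fit without WT 2 also called those 12 (30.2% of all genes). Hoxb3, at -1.50 in log2 fold change with WT 2 (adjusted p = 0.211), was called higher in thymus without it. In Tol, 12 of 14 tested members were higher in thymus than in cerebellum (28.0%). Most of them were near the floor in both brain organs and could pass the filter only through thymus. That count is again a description and not support. Without the library labelled Tol 2 only 1 Tol cerebellum library is left, so no count is given for that fit.

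WT cerebellum had 5 of 11 tested members above WT cerebrum (8.34% of all genes) and 0 below (10.2%). Hoxb3 had a log2 fold change of 5.58 (adjusted p = 0.0168) and Hoxc9 one of 1.06 (adjusted p = 0.0352), and Hoxa2, Hoxa4 and Hoxb2 were the other 3. The call of Hoxb3 was lost without cerebellum WT 2, and those of the other 4 also without several other libraries. Without WT 2, 0 members were called by edgeR, where 8.44% of all genes were higher, and 3 had an unadjusted p under 0.05. In Tol, Hoxb4 was lower in cerebellum than in cerebrum (adjusted p = 0.0235), with counts of 0 and 0 against 2, 1, 3 and 2, which are at or under the floor of 3 counts and give no fold, beside 5.95% of all genes lower. No member was higher by edgeR or DESeq2 (5.73% by edgeR), and 3 had an unadjusted p under 0.05 in either direction. Without the library labelled Tol 2, 0 members were lower by edgeR (11.2% of all genes) and 1 member was higher (7.77% of all genes). The higher one was Hoxa4, at a log2 fold change of 4.57, with 3 counts in Tol 1 and none in Tol cerebrum. That fit again has 1 Tol cerebellum library and takes its spread from the other groups. Apart from Hoxc9, these cerebellum calls rest on counts of 3 or fewer in Tol or on 1 WT library.

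Cerebellum WT 2 held 703 Hox counts, and 637 of them fell on numbers 2 to 5, a share of 90.6% (exact 95% interval 88.2 to 92.7). That share was 11.5 to 47.2% in the other 5 cerebellum libraries, 14.3 to 25% in cerebrum and 47.99 to 63.4% in thymus. By number, WT 2 had 27 counts of number 1, 71 of number 2, 289 of number 3, 181 of number 4, 96 of number 5 and 24 of number 9. The other cerebellum libraries had 1 to 10 counts of number 3, 3 to 13 of number 4 and 0 to 1 of number 5. In WT 2 alone among the cerebella 11 members reached 10 counts, all of them among the 12 members of numbers 2 to 5, and the remaining one of the 12, Hoxc5, had 9 counts. None of the 27 other members did so, and over all 34585 entries 0.416% did. The span of numbers 2 to 5 follows the counts of WT 2 itself and is not one of the sections used above. The share and the count of members in this span thus describe that library and test nothing.

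**Figure D4:**
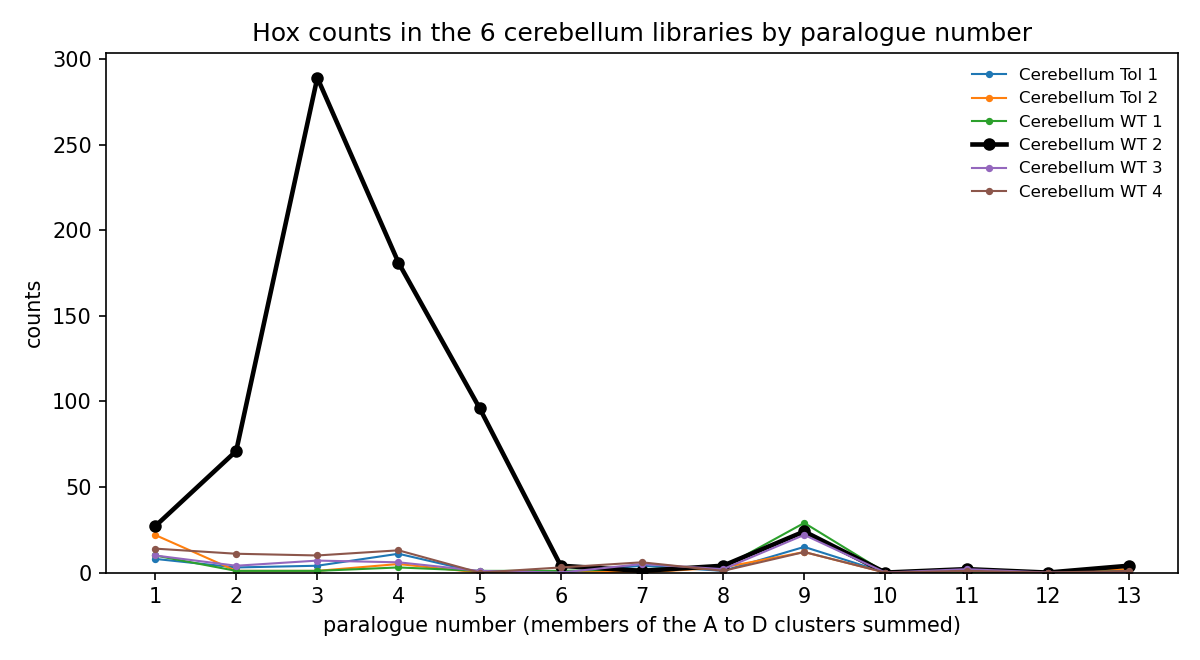
Summed counts of the Hox members of each paralogue number in the 6 cerebellum libraries, with WT 2 in black. WT 2 reaches 289 counts at number 3 and 181 at number 4, where the other libraries have at most 10 and 13.

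The plot of counts by paralogue number shows WT 2 alone between numbers 2 and 5 and all 6 libraries together at number 9. Hoxb3 had counts of 1, 147, 5 and 6 in the 4 WT cerebella and 3 and 1 in the 2 Tol ones. Hoxd3, which with Hoxa3 shapes the first neck vertebrae, had 0, 98, 2 and 2 and 0 and 0, and Hoxb5 1, 45, 0 and 0 and 0 and 0. In each the WT 2 value was over 10 times the next. Hoxa4 had 0, 59, 2 and 3 counts in WT cerebella, Hoxc4 3, 56, 4 and 4 and Hoxa3 0, 44, 0 and 2. Hoxa7 (1 count in WT 2, and 0 to 6 in the others) and Hoxc11 (1 and 0) did not stand out in WT 2. With WT 2 the HoxB sum in WT cerebellum was 3.58 ± 5.56 CPM (SD, n = 4, from 0.461 to 11.9) and without it the mean was 0.809. The corresponding means with and without WT 2 were 2.41 and 0.462 CPM for HoxA, 1.55 and 0.835 for HoxC, and 2.02 and 0.428 for HoxD. The Hox counts of WT 2 stood beside its brainstem and spinal cord marker sum of 220 CPM, in which Slc6a5 made up most and none of the 8 markers was at 0, and the part of such cells in the Hox values was not tested. The library labelled Tol 2, with its low cerebellar markers, had 48 Hox counts, within the 46 to 72 of the libraries other than WT 2. Next to WT 2 in members with at least 3 counts stood WT 4, with 12 of 39, and its choroid plexus markers summed to 285 CPM.

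No tested member was called between Tol and WT in any organ. In thymus 12 members were tested and 0 called by edgeR, where 16 of all 16248 genes were called, 0.0985%. At an unadjusted p under 0.05 there were 0 of the 12 members and 24.4% of all genes. The 12 members had only 6 to 106 counts in a thymus library, whereas that share covers genes of all levels. No share among genes of like level was computed. DESeq2 called 0 members, but it gave an adjusted p to 2 members only, and it called 1252 of the 12792 genes with an adjusted p, 9.79%. The lowest p belonged to Hoxc11, with a log2 fold change of Tol over WT of 0.36 (SE 0.27, adjusted p = 0.431) from 0.695, 0.967, 0.737 and 0.634 CPM in Tol and 0.705, 0.629, 0.673 and 0.389 in WT. Hoxa7 had a value of 0.43 (SE 0.33, adjusted p = 0.446), and its highest library was WT 3. The genotypes overlapped in both genes. The other 10 members had log2 fold changes from -0.16 to 0.32. The 6 fibroblast markers summed to 170 to 256 CPM in Tol thymus and 229 to 377 in WT thymus, none of them was called and 4 had an unadjusted p under 0.05, where 24.4% of all genes did. The 6 thymic epithelium markers summed to 970 to 1102 CPM in Tol thymus and 924 to 968 in WT thymus, without overlap, with 0 called and 1 at an unadjusted p under 0.05. The part of either list in the Hox values was not tested.

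In cerebrum 1 member was tested, Hoxb1, with 0.485, 0.588, 0.740 and 0.623 CPM in Tol and 0.488, 0.321, 0.540 and 0.599 in WT (log2 fold change 0.31, SE 0.28, adjusted p = 0.797). It was not called, 0 members had an unadjusted p under 0.05, against 9.66% of all genes, and of all genes 0.0% were called by edgeR. In cerebellum 2 members were tested and 0 called, beside 0.0% of all genes, with 1 at an unadjusted p under 0.05, where 3.16% of all genes were. DESeq2 gave no member an adjusted p in cerebrum or cerebellum, and of the genes with one it called 1.44% in cerebrum and 0.0657% in cerebellum. Hoxc9 was at 0.330 and 0.161 CPM in Tol and 0.839, 0.741, 0.695 and 0.349 in WT, a log2 fold change of -1.38 (SE 0.55, adjusted p = 0.957 by edgeR). The Tol libraries lay below the WT ones, but without the library labelled Tol 2 and WT 2 the value for Hoxc9 was -0.92 (adjusted p = 0.943), and with 1 Tol library left that fit takes its spread from the WT group. Whether the genotype effect differed between thymus and cerebrum was tested as an interaction by edgeR for 15 members, and 0 passed (lowest adjusted p = 0.705).

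All members with 3 counts in at least 1 library of an organ were also looked at by whether the genotypes overlapped. The members tested by edgeR above are among them, including Hoxc9 in cerebellum. In thymus, among 30 members with 3 counts in at least 1 library, Hoxa6 had every Tol library above every WT library, where 4.89% of all genes did. Its counts were 11, 5, 6 and 7 in Tol and 3, 1, 0 and 4 in WT, or 0.261 ± 0.0291 and 0.0772 ± 0.0649 CPM (SD, n = 4 each; two-sided exact permutation test, p = 0.0286, the smallest this design allows, over 30 members looked at). Hoxc5 had every Tol library below every WT library, where 4.37% of all genes did, with counts of 1, 0, 0 and 1 in Tol and 4, 5, 2 and 3 in WT, and it shares exons with Hoxc10. A count of 1 in each direction among 30 members lies close to those background shares. In cerebrum 0 of 9 such members were separated, where 3.01% of all genes had Tol higher and 2.68% lower. In cerebellum 0 of 21 were higher (5.16%) and 2 lower (5.52%), one of them Hoxc9 at 0.245 ± 0.119 CPM in Tol (SD, n = 2) and 0.656 ± 0.213 in WT (SD, n = 4; exact permutation test, p = 0.133). The permutation p-values of Hoxa6 and Hoxc9 were fixed in advance, since these members were picked for not overlapping. They are therefore no test of the difference.

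The TALE homeodomain proteins of the Pbx, Meis and Pknox families bind DNA together with Hox proteins and sharpen their choice of sites, and all 9 of their genes were tested. In WT thymus against WT cerebrum 2 were higher and 4 lower, beside 29.7% and 30.2% of all genes. The median log2 fold change of the 9 was -0.72 against 0.059 over all genes. Pknox1 (2.35) and Meis1 (1.07) were higher in thymus, and those lower included Pknox2 (-4.71), Meis2 (-2.96) and Pbx3 (-1.42). Against WT cerebellum 2 were higher in thymus, Pknox1 (1.89) and Pbx2 (1.23), beside 27.4% of all genes. Another 4 were lower, beside 29.7%, among them Pknox2 (-3.16), Pbx3 (-2.55) and Meis1 (-2.04). Meis1 thus changed direction with the brain region, and WT cerebellum was above WT cerebrum by 3.10. In WT libraries Meis1 was at 12.7, 14.4, 11.3 and 11.99 CPM in thymus, 3.31, 3.47, 13.6 and 4.07 in cerebrum and 51.98, 44.1, 61.5 and 54.2 in cerebellum. Pknox1 was at 91.4, 85.5, 84.2 and 94.6 CPM in WT thymus and 15.7, 19.2, 20.2 and 15.8 in WT cerebrum. Meis1 in cerebrum was highest in WT 3 and Tol 4, which overlapped the thymus values. None of the 9 was called between Tol and WT in any organ by edgeR; 1 in thymus, 1 in cerebrum and 0 in cerebellum had an unadjusted p under 0.05, where 24.4%, 9.66% and 3.16% of all genes did, and the value for Pknox1 in thymus was -0.34 (adjusted p = 0.0644).

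**Figure D5:**
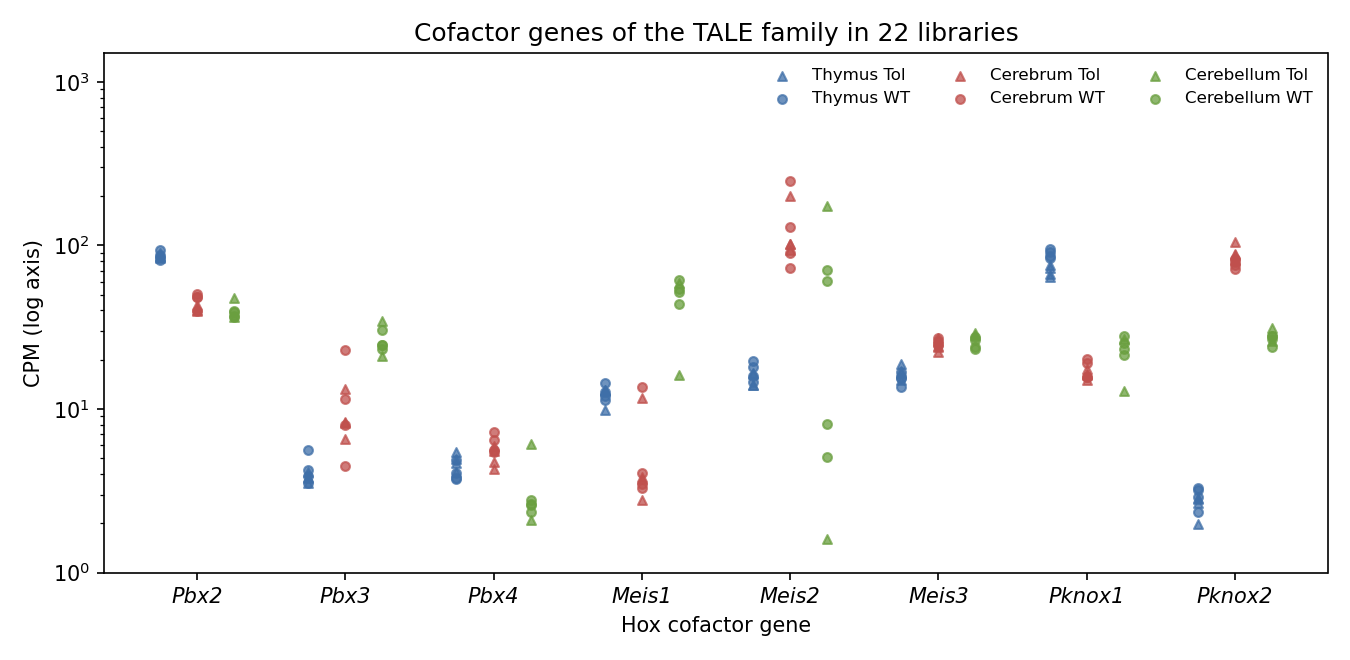
CPM of 8 of the 9 TALE cofactor genes on a logarithmic axis in each organ, with Tol libraries as triangles and WT libraries as circles. Pknox1 lies higher in thymus than in the brain organs, Pknox2 lower, and Meis1 is lowest in cerebrum except in WT 3 and Tol 4, which reach the thymus values.

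The plot of TALE cofactors by organ shows the genotypes mixed for most genes, while in thymus Pknox1 was lower in every Tol library than in every WT library, as 4.37% of all genes were. Of 19 genes known to set or maintain Hox expression 17 were tested. In WT thymus against WT cerebrum 8 were higher, beside 29.7% of all genes, and 1 was lower, beside 30.2%. The lower one was Rarb, which was highest in cerebrum WT 3 and Tol 4. The median log2 fold change of the 17 was 0.71 against 0.059 over all genes. Those with the lowest p were the Polycomb genes Ezh2 (5.78), Cbx2 (3.70), Suz12 (2.29) and Eed (2.03), whose products keep Hox genes silent and act on many other genes. Ezh2 was at 186 to 242 CPM in WT thymus and 3.58 to 4.79 in WT cerebrum. Thymus thus had more of these silencing subunits' transcripts and more Hox transcripts, side by side. Cdx1, an activator of central Hox genes, was at 3.71 to 4.89 CPM in the 8 thymus libraries and had no count in the 14 brain libraries. Against WT cerebellum 8 of the regulators were higher in thymus and 1 lower, beside 27.4% and 29.7% of all genes.

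Genes that flank the clusters were read as neighbours outside the Hox family, and 8 of 12 were tested. In WT thymus against WT cerebrum 3 were higher, Skap1 beside HoxB (6.68), Hibadh (1.23) and Skap2 (1.21) beside HoxA, and Lnpk beside HoxD was lower (-1.33), with a median log2 fold change of 0.43. Skap1, a T cell adaptor protein, was at 172 to 232 CPM in thymus and at most at 2.33 in brain. Evx2, a homeobox gene next to HoxD that marks spinal interneurons, was at 4.18 CPM in cerebellum WT 2 and 1.81 in the library labelled Tol 2, and at most at 0.81 in the other cerebellum libraries. The 3 higher of 8 stand beside 29.7% of all genes, and the 1 lower beside 30.2%.

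The start sites of 3 members that were among the highest in thymus are shown, to set the promoters beside their levels. Each line holds the 250 bases before the RefSeq start in GRCm38.p6, in the direction of transcription, with capitals for a match to a motif.
Hoxa2, chr6:52164832-52165081, minus strand: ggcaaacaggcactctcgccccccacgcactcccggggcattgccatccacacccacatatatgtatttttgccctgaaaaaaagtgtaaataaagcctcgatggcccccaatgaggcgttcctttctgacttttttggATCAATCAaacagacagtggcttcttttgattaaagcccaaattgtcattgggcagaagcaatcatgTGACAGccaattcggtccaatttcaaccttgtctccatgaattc
Hoxa7, chr6:52218574-52218823, minus strand: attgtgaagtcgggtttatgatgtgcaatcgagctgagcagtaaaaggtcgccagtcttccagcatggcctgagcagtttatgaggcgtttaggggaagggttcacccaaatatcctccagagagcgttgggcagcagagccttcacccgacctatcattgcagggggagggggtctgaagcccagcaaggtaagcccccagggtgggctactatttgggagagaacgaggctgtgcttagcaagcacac
Hoxb4, chr11:96318017-96318266, plus strand: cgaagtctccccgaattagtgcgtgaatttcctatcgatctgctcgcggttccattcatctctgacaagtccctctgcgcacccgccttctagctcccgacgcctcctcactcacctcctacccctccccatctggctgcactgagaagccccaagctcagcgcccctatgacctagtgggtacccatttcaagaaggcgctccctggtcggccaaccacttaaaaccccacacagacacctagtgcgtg
Both strands of the window from 250 bases before to 50 after the start were searched for TGATNNAT, a site that Hox and Pbx proteins bind together, for TGACAG, the site of Meis and Pknox proteins, and for TATAAA. Hoxa2 held 1 match to each of the first 2 motifs, and the windows of Hoxa7 and Hoxb4 held none of the 3. Among 24 Hox promoters of 22 genes TGATNNAT was found in 4 (16.7%), TGACAG in 2 (8.33%) and TATAAA in 4 (16.7%), and among all 32851 promoters in 8.85%, 19.2% and 13.6%. Hox promoters had a median of 57.7% G and C and 14.5 CpG pairs in 300 bases, against 52.7% and 7.0 over all promoters. The matches describe letters in a window and were not compared with binding data.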

How the data were processed

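Single-end RNA-sequencing libraries of poly(A) RNA were prepared from frozen organs with a stranded kit. The authors quantified transcripts with Salmon 0.14.1 against GRCm38 transcripts plus the Tol sequence. The deposited values are estimated counts (expected counts) per gene, in whole numbers and not normalized, so that no rounding was needed. The submitters' processing notes also name edgeR 3.9. The annotation release, the summing of transcripts to genes and the strand setting are not given in the sources used here. Each of the 3 tables holds 1 organ. The table columns call the Tol libraries by another abbreviation, and each was matched to the labelled Tol sample of the same organ and number. Salmon divides reads between similar transcripts by estimation, so low counts of paralogues and overlapping genes carry an error beyond counting.

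Symbols were taken from GENCODE vM21 (34465 of 34585 identifiers matched), and noncoding Hox cluster transcripts are not analysed here. Groups were compared with edgeR 4.0.16 under R 4.3.3. Counts were TMM-normalized and filtered with filterByExpr, and p-values of the quasi-likelihood test were adjusted by Benjamini-Hochberg over all genes tested. Genotypes were compared separately in each organ. Organs were compared in 1 fit of the 3 organs of a genotype, with a gene called at an adjusted p under 0.05 and an absolute log2 fold change over 1. DESeq2 1.42.0 was an alternative. The scripts were tested on simulated data. All pairs of libraries within a group differed by more than sampling noise (chi-square over its degrees of freedom, 4.98 to 208), and each library was taken as 1 replicate. This measure alone cannot tell whether each library came from a separate mouse. Depth was 14543698 to 34776973 counts per library, and under 3 counts a gene was called not detectable in it. Ratios of summed counts have exact 95% intervals.

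Values per library are given for members called in a WT comparison of organs and for the member with the lowest p in each comparison of Tol with WT; other members named singly, Cdx1 and Rarb, and the genes used to describe libraries that stand apart, were chosen after their values were seen. Of other lists all TALE and flanking genes could be named, and up to 4 of the rest by lowest p. The members and lists were chosen with earlier results of these data known. Some genes and sequences are not reported here. Homeobox identities were computed from GENCODE vM21 transcripts, and promoters were read from RefSeq on GRCm38.p6. The alternatives were DESeq2's size factors, DESeq2, no filter, at least 10 counts, robust moderation, all 22 libraries in 1 fit, library totals alone, the compared organs alone, the replicate number as a block, another floor of detection, levels per kilobase, and leaving out each library in turn. Leaving out the library labelled cerebellum Tol 2 together with cerebellum WT 2 was added after seeing the data.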

Additional observations from a re-analysis of the deposited data

Results flagged for a closer look

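In groups of 4 libraries a single library was marked where its gap to the nearest other was a large part of the group's range (Dixon's test at the 95% level). Of 76 such groups 14 were marked, where chance marks about 1 in 20 (3.8 here). Of these, 13 were cerebellum WT 2. In that library Hoxb3 was at 6.41 CPM (nearest other WT cerebellum 0.262), Hoxd3 at 4.27 (0.0873), Hoxa4 at 2.57 (0.131) and Hoxc4 at 2.44 (0.175). Hoxb5 was at 1.96 CPM (0.0420), Hoxa3 at 1.92 (0.0873), Hoxa5 at 1.83 (0.0386), Hoxb2 at 1.57 (0.218) and Hoxd4 at 1.57, where the nearest other was at 0. The cluster sums of WT 2 were 8.24 CPM for HoxA (0.83), 11.9 for HoxB (1.31), 3.70 for HoxC (1.05) and 6.80 for HoxD (0.461). The genes marked were all of numbers 2 to 5, and the sums contain them, so these marks are not independent of each other. The remaining mark was Hoxa7 in cerebrum Tol 2, at 0.374 CPM against 0.0986 in the nearest other Tol cerebrum, or 7 counts against 2.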

How the results depend on the processing

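Depth limits these results: a cerebrum library held 14 to 52 Hox counts in all, and most members were under 3 counts in brain. The sources of the changes below were not tested. With a floor of 10 counts thymus had 10 members detected, cerebrum 0 and cerebellum 0, and leaving out each library in turn gave 16 to 17, 1 to 2 (2 without cerebrum WT 2) and 4 to 4. By library total alone the WT thymus sums were 10.2 CPM for HoxA, 3.66 for HoxB, 1.81 for HoxC and 2.46 for HoxD, and per kilobase they were 3.15, 1.09, 0.667 and 0.769. Per kilobase the WT cerebrum sums were 0.0569, 0.283, 0.237 and 0.120. HoxA remained the highest in thymus and the lowest in cerebrum on each scale.

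The 9 members higher in WT thymus than in WT cerebrum became 16 with no filter on low counts, and 8 to 12 with each library left out. The 3 members higher in WT thymus than in WT cerebellum became 6 under DESeq2, 11 with no filter and 5 with all 22 libraries in one fit, and 3 to 12 with each library left out (12 without cerebellum WT 2, and 5 without cerebrum WT 1, 2 or 3 or cerebellum WT 1 or 3). The 1 lower became 0 with DESeq2's size factors, 0 under DESeq2, 0 with at least 10 counts, 0 with library totals alone and 2 with no filter, and 0 to 1 with each library left out. The 5 members higher in WT cerebellum than in WT cerebrum became 3 under DESeq2 and 10 with all 22 libraries in one fit, and 0 to 7 with each library left out: 0 without cerebellum WT 2, 1 without thymus WT 2 or 3 or cerebrum WT 1 or 2, and 2 without thymus WT 1 or 4 or cerebrum WT 3 or 4. In Tol the 1 member lower in cerebellum than in cerebrum became 0 under DESeq2, 0 with all 22 libraries in one fit and 0 with the 2 organs alone, and 0 to 1 with each library left out (0 without cerebrum Tol 3 or either cerebellum library). The 0 members higher there became 0 to 1 (1 without the library labelled Tol 2).

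Replicate numbers were not used to pair libraries in the main fits. Deviations of same-numbered libraries correlated at -0.38 to 0.67 between the genotypes of an organ, where no mouse is shared. Between organs of a genotype they correlated at -0.15 to 0.11. These values cannot tell whether same-numbered libraries of different organs share a mouse. With the number as a replicate block, 10 members were higher in WT thymus than in WT cerebrum, 3 were higher and 0 lower than in WT cerebellum, and 2 were higher in WT cerebellum than in WT cerebrum. In Tol the block gave 12 and 11 members higher in thymus and 0 lower in cerebellum than in cerebrum.

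Some single members changed sign under another setting or with 1 library left out. In WT thymus against WT cerebellum Hoxa4 (-0.03) was 0.021 with DESeq2's size factors, 1.26 with the block and 0.22 with library totals alone, and Hoxb3 (-1.50) was 0.047 with the block. With each library left out Hoxa4 ranged from -0.45 to 3.17, Hoxb2 from -0.12 to 2.16, Hoxd4 from -0.062 to 6.40 and Hoxb3 from -1.91 to 1.82, the highest each time without cerebellum WT 2. In WT thymus against WT cerebrum Hoxc9 ranged from -0.22 to 0.30. In WT cerebellum against WT cerebrum Hoxd8 ranged from -0.094 to 3.34, Hoxa7 from -0.30 to 0.46, Hoxa5 from -0.082 to 6.33 and Hoxd4 from 0 to 6.45. In Tol thymus against Tol cerebellum Hoxc9 ranged from -0.035 (without cerebellum Tol 2) to 0.96. In Tol cerebellum against Tol cerebrum Hoxa4 ranged from 0 to 4.57, Hoxa2 from 0 to 3.10, Hoxa3 from 0 to 3.10, Hoxd8 from -2.62 to 0.47, Hoxa5 from -2.21 to 0, Hoxd4 from -1.82 to 2.27 and Hoxb3 from -0.014 to 1.83. Of the remaining values of single members, 540 with another setting and 649 with a library left out kept their direction and their side of the threshold.

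Over all genes, Tol against WT in thymus gave 16 calls with the Tol transcript left out, against 1252 under DESeq2, 130 with no filter, 38 with robust moderation, 29 with all 22 libraries and 5 with the block. Leaving out a library gave 0 to 2978 (2978 without thymus Tol 1, 97 without Tol 3). DESeq2 called 183 in cerebrum, where all 22 libraries in one fit gave 25, and 9 in cerebellum. The calls of Tol cerebellum above Tol cerebrum were 1053, and 567 with the block and 673 with the 2 organs alone, and those below were 1093, and 2132 without the library labelled Tol 2. Among the 39 members Tol against WT gave 0 calls in each organ under all of these, but DESeq2 gave an adjusted p to 2 members in thymus and to none in cerebrum or cerebellum. No Hox member was tested in WT cerebellum against WT cerebrum with those 2 organs alone, nor in Tol against WT cerebrum without Tol 3.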
